A study of Mus musculus with 9 samples.

Results

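The genes described here encode fatty acid elongases (Elovl1, Elovl3, Elovl4, Elovl5, Elovl6 and Elovl7) and fatty acid desaturases (Scd1, Scd2, Fads1 and Fads2). They were found by gene symbol: a probe set counted when the array's annotation table gave it 1 symbol and that symbol was one of these 10. This gave 28 of 45037 probe sets, and all 10 genes among 18193 genes with a probe set of their own. RNA was measured on arrays in mature 3T3-L1 cells, a mouse preadipocyte line that turns into fat cells in culture. The cells had been transduced with lentivirus carrying hairpin 2 against the transcription factor gene Ebf1, hairpin 1 against the same gene, or a scrambled hairpin as the control, with 3 arrays in each of the 3 groups. All groups had 3 to 4 infections, and selection with puromycin at 5 µg/ml lasted 8 days or longer. The labels number the arrays as repeats and do not say whether they were separate cultures, so the p-values rest on a spread that may be technical. The culture is a single cell line without the other cells of a fat depot.

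Elongases sit in the endoplasmic reticulum and carry out the condensation step that lengthens a fatty acyl chain, after which a reductase, a dehydratase and another reductase complete each round. Desaturases put double bonds into the chain with electrons passed on by cytochrome b5 and its reductase. In fat cells the best known sequence of these steps takes palmitate from de novo synthesis to stearate through Elovl6, and then to oleate, a main fatty acid of stored triglyceride, through the stearoyl-CoA desaturases.

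All values are the authors' log2 expression values, 1 per probe set and array. Each gene was read from its brightest probe set (by mean of all 9 arrays), and the test took genes whose mean was at least 5.72, the 30th percentile. This left 12735 genes and 7 of the 10 members. Elovl3, Elovl4 and Elovl7 lay below it. A gene was called when its Benjamini-Hochberg adjusted p over all genes tested, from a linear model in limma, was below 0.05. Ebf1 itself read 8.90, 8.72 and 9.20 with hairpin 2, 9.32, 9.54 and 9.45 with hairpin 1, and 10.12, 10.15 and 10.31 with the scrambled hairpin, and the groups did not overlap. It fell 2.38-fold with hairpin 2 and 1.69-fold with hairpin 1 (limma adjusted p = 2.98e-07 and 0.000102). Arrays correlated at 0.994 to 0.998 within groups and 0.974 to 0.989 between groups. All 10 measured adipocyte markers were above the signal limit in these cells, and their mean level was 13.41 to 13.46 with hairpin 2, 13.4 to 13.5 with hairpin 1 and 13.41 to 13.53 with the scrambled hairpin. With hairpin 2, 1 was higher, Plin4 (0.20, limma adjusted p = 0.00913), and 2 were lower, Cidec (-0.25, 0.00255) and Pnpla2 (-0.20, 0.0478). With hairpin 1, 0 were called, beside 34.8% and 33% of all genes with hairpins 2 and 1. With the scrambled hairpin Adipoq averaged 14.82, Fabp4 14.89 and Lpl 14.71, near the highest array value of 15.

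With hairpin 2, 3 of the 7 tested members rose and 0 fell, and with hairpin 1, 2 rose and 0 fell (1 rose when scrambled repeat 1 was left out). The background of such calls was high: 34.8% of all genes tested were called with hairpin 2 (21.5% higher and 13.3% lower) and 33% with hairpin 1 (23.7% higher and 9.23% lower). The members' shares, 42.9% and 28.6%, were near these. Their median difference was 0.096 log2 units with hairpin 2 and 0.0437 with hairpin 1, beside 0.0238 and 0.0675 over all genes. Both comparisons share the scrambled arrays. Between the hairpins, 2 members were higher with hairpin 2 and 0 lower, where 29.1% of all genes were called (11.6% higher and 17.4% lower). Of the 7 tested members, Elovl6 had the largest difference from scrambled with each hairpin.

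**Figure D1:**
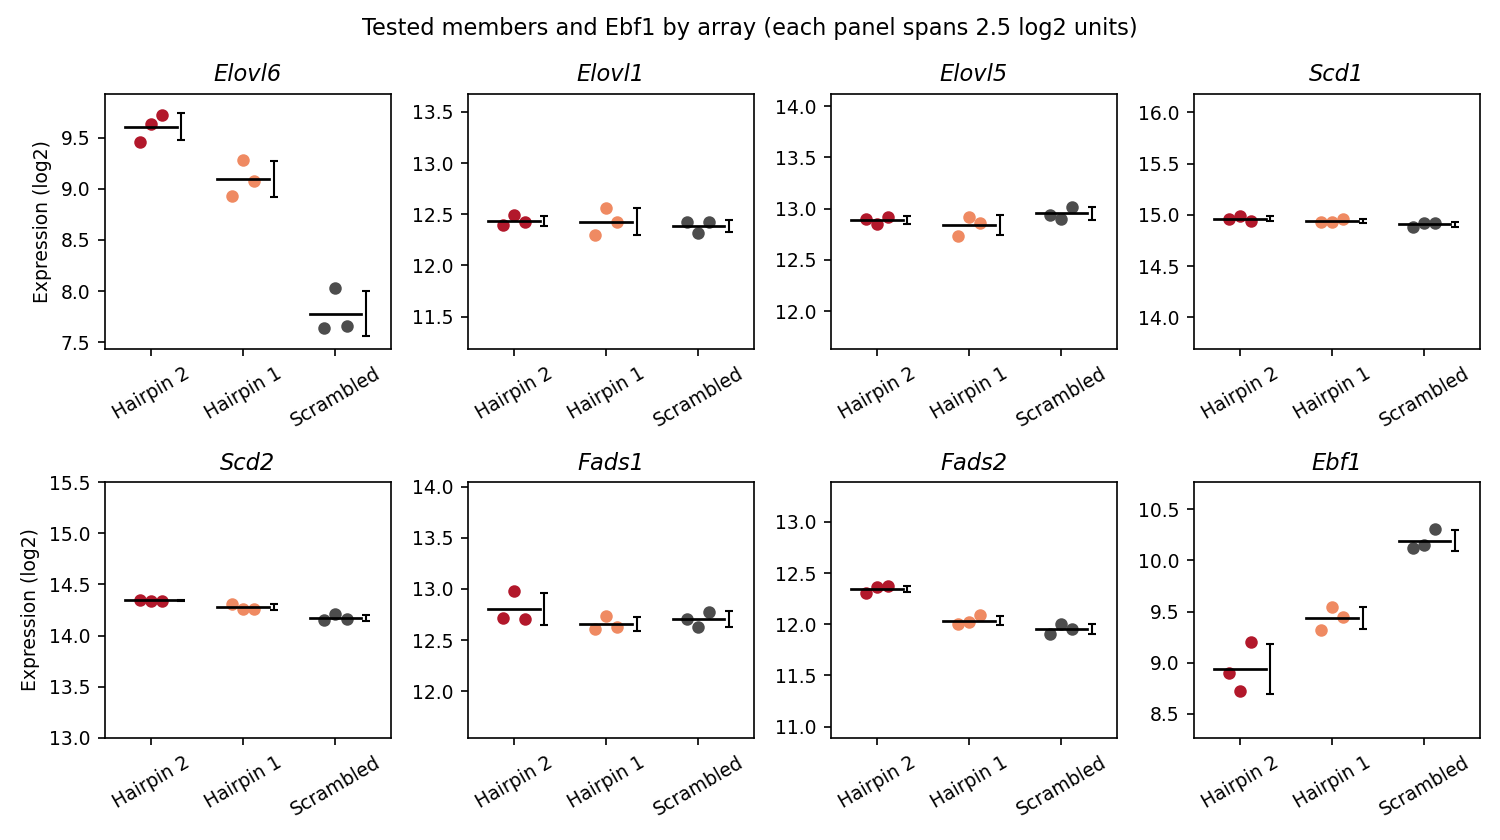
Log2 expression on each array for the 7 tested members and for Ebf1, with hairpin 2, hairpin 1 and scrambled from left to right. Points are arrays, horizontal lines are means and bars are the SD of 3 arrays; each panel covers the same height in log2 units. Elovl6 runs at 9.46 to 9.72 with hairpin 2, 8.93 to 9.28 with hairpin 1 and 7.64 to 8.03 with the scrambled hairpin, while the Scd1 and Scd2 panels lie near the highest value of the arrays.

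Elovl6, the elongase that makes stearate from palmitate, rose with both hairpins. It read 9.46, 9.63 and 9.72 with hairpin 2, 8.93, 9.28 and 9.08 with hairpin 1, and 7.64, 8.03 and 7.66 with the scrambled hairpin. Every hairpin 2 array was above every hairpin 1 array, and every hairpin 1 array above every scrambled one. The rise was 3.55-fold with hairpin 2 (log2 difference 1.83, SE 0.121, limma adjusted p = 7.48e-09) and 2.5-fold with hairpin 1 (1.32, adjusted p = 6.56e-07). The direct comparison put hairpin 2 above hairpin 1 by 0.51 log2 units (95% interval 0.25 to 0.76, adjusted p = 0.00503). The order of the groups in Elovl6 was the reverse of their order on the brightest Ebf1 probe set. There Ebf1 was lowest with hairpin 2 at 8.94 ± 0.24, next with hairpin 1 at 9.44 ± 0.11 and highest with the scrambled hairpin at 10.19 ± 0.10 (SD, n = 3 each). On the other Ebf1 probe sets hairpin 2 minus hairpin 1 was -0.27, -0.52, -0.61 and -0.19. The limma adjusted p-values over all probe sets were 0.341, 0.00943, 0.0124 and 0.25. Of 5 Ebf1 probe sets, 4 were lower than scrambled with hairpin 2 and 3 with hairpin 1.

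Another of the 3 Elovl6 probe sets gave the same picture. It read 9.13, 9.21 and 9.36 with hairpin 2, 8.76, 8.79 and 8.56 with hairpin 1, and 7.67, 7.81 and 7.61 with the scrambled hairpin, again with no overlap. The differences were 1.53 with hairpin 2 and 1.01 with hairpin 1 (limma adjusted p = 4.86e-08 and 8.46e-06 over all probe sets), and hairpin 2 was above hairpin 1 by 0.53 (adjusted p = 0.0028). The remaining Elovl6 probe set averaged 6.04 with hairpin 2, 6.22 with hairpin 1 and 6 with the scrambled hairpin, close to the signal limit, and was not called (0.04 and 0.22, adjusted p = 0.857 and 0.0938). Averaging all 3 probe sets brought the Elovl6 differences down to 1.13 and 0.85 log2 units, still called (adjusted p = 9.63e-08 and 3.1e-06), and the difference between the hairpins to 0.28 (adjusted p = 0.0145).

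Markers of fibroblasts and preadipocytes differed between the same groups. Of the 7 measured, 5 were higher and 1 lower with hairpin 2, and 6 were higher with hairpin 1. Over all genes tested, 34.8% were called with hairpin 2 and 33% with hairpin 1. The mean log2 level of these 7 markers was 10.94 to 11.01 with hairpin 2, 10.85 to 11 with hairpin 1 and 10.15 to 10.29 with the scrambled hairpin. The markers Thy1 (1.96 and 0.92) and Pdgfra (1.18 and 0.89) rose with hairpins 2 and 1. Dlk1, a marker of preadipocytes, fell by 0.83 with hairpin 2 (adjusted p = 0.00157) and rose by 0.70 with hairpin 1 (adjusted p = 0.00647). Cd34 lay below the signal limit. Their part in the Elovl6 result was not tested, and in bulk RNA fewer cells of a type and less RNA per cell cannot be told apart. Of the macrophage and leukocyte markers 3 of 7 lay below the signal limit, and 1 rose with hairpin 2, Cd68 (1.18, adjusted p = 3.3e-07). Of the endothelial markers 3 of 4 lay below it, and 0 were called in limma with either hairpin.

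The genes whose levels followed Elovl6 most closely over the 9 arrays were Cox20 (Pearson r = 0.996), Atg3 (0.995) and Trappc1 (0.993), with differences of 0.53, 0.53 and 0.64 log2 units for hairpin 2 and 0.38, 0.39 and 0.50 for hairpin 1. These correlations are a description over 9 arrays that share 3 groups. For Scd2 the closest were Trib2 (0.983), Elk3 (0.982) and the gene model Gm17455 (0.979). Among the members, Elovl6 correlated at 0.948 with Scd2 and 0.841 with Fads2 over the same arrays, and at -0.438 with Elovl5.

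The promoter windows of Elovl6 and Fads2 are shown because these are the members called between the hairpins. They are the 250 bases before each gene's RefSeq start, build GRCm38.p6, for Elovl6 chr3:129532136-129532385 on the plus strand and for Fads2 chr19:10101504-10101753 on the minus strand, written in the direction of the gene. Capitals mark matches to the motifs searched.
Elovl6: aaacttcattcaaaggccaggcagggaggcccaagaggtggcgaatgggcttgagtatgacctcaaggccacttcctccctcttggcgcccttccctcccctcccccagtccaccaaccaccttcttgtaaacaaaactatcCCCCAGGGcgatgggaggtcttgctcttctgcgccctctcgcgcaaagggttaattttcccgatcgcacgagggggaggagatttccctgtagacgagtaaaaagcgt
Fads2: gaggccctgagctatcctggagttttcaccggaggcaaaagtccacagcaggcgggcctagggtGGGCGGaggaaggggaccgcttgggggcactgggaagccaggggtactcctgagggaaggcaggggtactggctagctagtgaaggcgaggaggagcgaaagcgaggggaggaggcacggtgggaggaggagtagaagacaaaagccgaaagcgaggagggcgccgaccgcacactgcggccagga
The motifs searched on both strands were CCCNNGGG, the palindromic core bound by Ebf proteins, CACGTG (E-box), CCAAT, TCACNCCAC (core of a sterol regulatory element) and GGGCGG (GC box). The Elovl6 window holds 1 CCCNNGGG that begins 108 bases before the start, and no match to the other motifs. The Fads2 window holds 1 GGGCGG that begins 186 bases before the start. Of all 32851 RefSeq windows of this length, 11.8% hold CCCNNGGG, 6.02% CACGTG, 33.8% CCAAT, 1.05% TCACNCCAC and 32.7% GGGCGG. Windows were found for 6 of the 10 members, 7 windows in all, and Elovl6 was the member with a CCCNNGGG. A match to these letters describes the window and is no measured binding site.

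**Figure D2:**
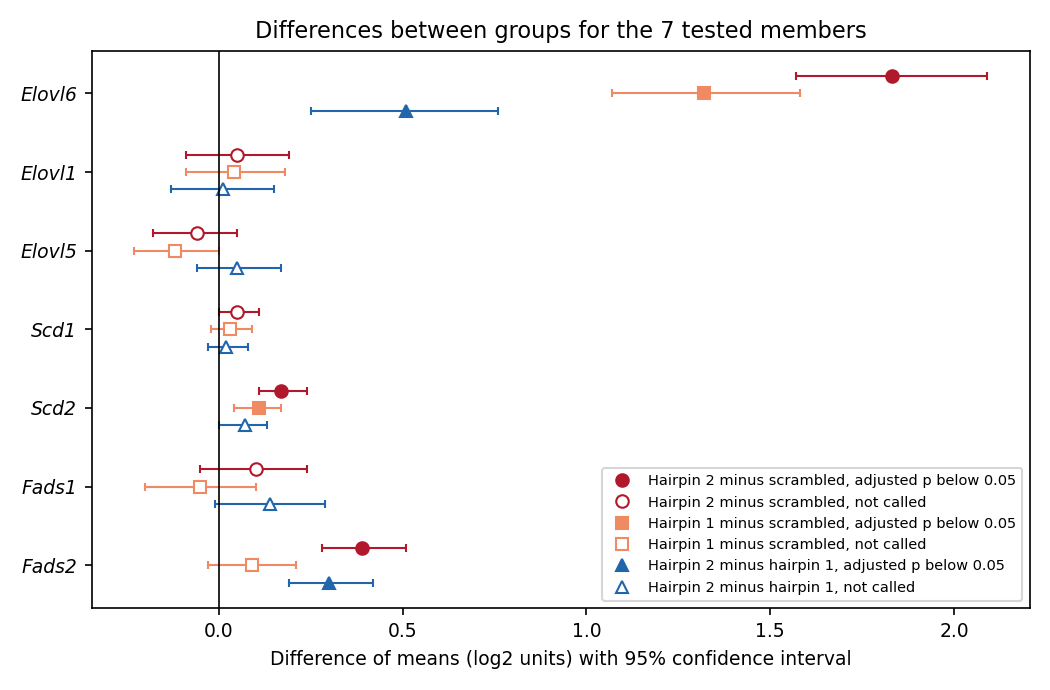
Differences of group means in log2 units for the 7 tested members, with 95% confidence intervals from the limma fit: hairpin 2 minus scrambled, hairpin 1 minus scrambled and hairpin 2 minus hairpin 1. Filled symbols have an adjusted p below 0.05. Elovl6 lies at 1.83, 1.32 and 0.51, and Fads2 at 0.39, 0.09 and 0.30.

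The other elongases differed little on the probe set with the highest signal. Elovl1, which makes the very long saturated chains of sphingolipids, read 12.43 ± 0.05 with hairpin 2, 12.43 ± 0.13 with hairpin 1 and 12.38 ± 0.06 with the scrambled hairpin (SD, n = 3 each), and the groups overlapped. The difference from scrambled was 0.05 with hairpin 2 (95% interval -0.09 to 0.19, adjusted p = 0.608) and 0.04 with hairpin 1 (-0.09 to 0.18, adjusted p = 0.654). A further Elovl1 probe set read 11.72, 11.63 and 11.72 with hairpin 2, 11.39, 11.64 and 11.64 with hairpin 1, and 11.28, 11.29 and 11.41 with the scrambled hairpin. On it Elovl1 was higher with hairpin 2 by 0.36 (limma adjusted p = 0.00316 over all probe sets, where 17.5% were called) and was not called with hairpin 1 (0.23, adjusted p = 0.0577), but passed when hairpin 1 repeat 1 was left out (0.31, adjusted p = 0.00283). The other 2 Elovl1 probe sets were not called with hairpin 2 (0.05 and -0.08, adjusted p = 0.762 and 0.68), so 1 of 4 was.

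Elovl5, an elongase of polyunsaturated fatty acids, read 12.90, 12.85 and 12.92 with hairpin 2, 12.73, 12.92 and 12.86 with hairpin 1, and 12.94, 12.90 and 13.02 with the scrambled hairpin. The groups overlapped, and neither difference was called: -0.06 with hairpin 2 (95% interval -0.18 to 0.05, adjusted p = 0.434) and -0.12 with hairpin 1 (-0.23 to 0.00, adjusted p = 0.114). The hairpin 1 difference passed without the second repeat of hairpin 1 (-0.16, adjusted p = 0.0466). It also passed with quantile normalization (-0.17, adjusted p = 0.0151), equal array medians (-0.16, adjusted p = 0.0268), array weights (-0.10, adjusted p = 0.0247) and the mean of both probe sets (-0.30, adjusted p = 0.00266). The other Elovl5 probe set read 12.80, 12.78 and 12.88 with hairpin 2, 12.65, 12.03 and 12.60 with hairpin 1, and 12.86, 12.90 and 12.97 with the scrambled hairpin. All 3 hairpin 1 arrays were below all others there, and Elovl5 fell by 0.49 with hairpin 1 (limma adjusted p = 0.00974 over all probe sets, where 15.1% were called). Without the second repeat of hairpin 1 the difference was -0.29 (adjusted p = 0.00389).

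Elovl3, Elovl4 and Elovl7 lay near the floor of the arrays in every group. Elovl3, known for its induction in brown fat, read 4.89, 5.13 and 4.84 with hairpin 2, 4.89, 5.08 and 4.89 with hairpin 1, and 4.85, 4.88 and 4.79 with the scrambled hairpin. The brown fat gene Ucp1 also lay below the signal limit, while the muscle-type cytochrome oxidase subunit gene Cox8b, on the same marker list, rose by 1.71 and 1.54 log2 units with hairpins 2 and 1. On that list 1 gene was higher and 2 lower with hairpin 2, the lower ones being Cidea (-0.76, adjusted p = 0.000527) and Prdm16 (-0.30, adjusted p = 0.0255), and 1 was higher and 0 lower with hairpin 1. The shares called among all genes were 34.8% and 33%. Elovl4, an elongase of very long chains in retina and skin, averaged 5.13 with hairpin 2, 4.95 with hairpin 1 and 5.10 with the scrambled hairpin. Its other probe set was called with hairpin 2 (0.30, adjusted p = 0.00732) at levels of 5.25 with hairpin 2 and 4.96 with the scrambled hairpin, below the signal limit. The 6 Elovl7 probe sets averaged 4.47 to 5.41 over the 9 arrays, and 0 of them were called with either hairpin against scrambled. The signal limit was 5.72, so these 3 genes were left out of the main member-level test. In the alternative without a signal filter all 10 members were tested. There 3 were called with hairpin 2, 2 with hairpin 1 and 2 between the hairpins, and these 3 genes were not among them.

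The stearoyl-CoA desaturases, which make the monounsaturated oleate and palmitoleate, went different ways. Scd2 rose with both hairpins, by small amounts on its brightest probe set. It read 14.35, 14.34 and 14.34 with hairpin 2, 14.31, 14.26 and 14.26 with hairpin 1, and 14.15, 14.21 and 14.16 with the scrambled hairpin, with no overlap between groups. The differences were 0.17 with hairpin 2 (SE 0.0305, limma adjusted p = 0.000324) and 0.11 with hairpin 1 (adjusted p = 0.0139). The hairpin 1 call was lost without the first scrambled repeat (0.10, adjusted p = 0.0656), with equal array medians (0.07, adjusted p = 0.148) and without the variance trend (0.11, adjusted p = 0.22). In the fit over all probe sets this probe set was called with hairpin 1 (limma adjusted p = 0.0454). It was called there in 0 of the 9 fits that left out 1 array (adjusted p = 0.055 to 0.167). The highest value on any array was 15.

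On a dimmer Scd2 probe set the rise was larger. It read 12.43, 12.51 and 12.40 with hairpin 2, 12.22, 12.44 and 12.26 with hairpin 1, and 11.92, 11.90 and 11.88 with the scrambled hairpin. The differences were 0.54 with hairpin 2 and 0.41 with hairpin 1 (limma adjusted p = 1.8e-05 and 0.000435 over all probe sets), called with every array left out in turn. The remaining Scd2 probe set read 9.08, 9.04 and 8.98 with hairpin 2, 9.41, 9.48 and 9.23 with hairpin 1, and 8.69, 8.83 and 8.79 with the scrambled hairpin. The hairpin 2 difference of 0.26 was not called there (adjusted p = 0.0727), while the hairpin 1 difference was 0.60 (adjusted p = 0.000436). Which hairpin gave the higher Scd2 value therefore depended on the probe set. With the mean of all 3 probe sets the differences were 0.33 and 0.37.

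Scd1, the main stearoyl-CoA desaturase of fat and liver, lay close to the highest value of the arrays on its brighter probe set. It read 14.96, 14.99 and 14.94 with hairpin 2, 14.93, 14.93 and 14.96 with hairpin 1, and 14.88, 14.92 and 14.92 with the scrambled hairpin. Neither difference was called (0.05 and 0.03, adjusted p = 0.116 and 0.341). The other Scd1 probe set read 13.87, 13.81 and 13.86 with hairpin 2, 14.13, 14.03 and 14.18 with hairpin 1, and 14.05, 14.16 and 14.11 with the scrambled hairpin. All hairpin 2 arrays were below all others. On it Scd1 fell by 0.26 with hairpin 2 (95% interval -0.36 to -0.16, limma adjusted p = 0.00081 over all probe sets). The hairpin 1 difference was 0.01 (adjusted p = 0.943). With the mean of both probe sets Scd1 was lower with hairpin 2 (-0.10, adjusted p = 0.0257), so its direction turned with the choice of probe set.

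Scd3, a desaturase gene of the same cluster known mainly from skin, fell with both hairpins. It read 7.32, 7.5 and 7.43 with hairpin 2, 8.65, 8.82 and 8.65 with hairpin 1, and 8.91, 9.34 and 9.35 with the scrambled hairpin, and no groups overlapped. The fall was 3.44-fold with hairpin 2 (log2 difference -1.78, SE 0.114, limma adjusted p = 5.1e-09) and 1.41-fold with hairpin 1 (-0.49, adjusted p = 0.00363). Hairpin 2 was below hairpin 1 by 1.29 log2 units (-1.29, adjusted p = 6.11e-07). The other Scd3 probe set fell by 1.63 with hairpin 2 and by 0.70 with hairpin 1, tested over all probe sets (adjusted p = 6.58e-07 and 0.00285). In the RefSeq order of genes Scd3, Scd2, Scd4 and Scd1 follow each other on chromosome 19. The Scd genes are close in sequence, and how far a probe set of one reads the RNA of another was not tested.

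The front-end desaturases make polyunsaturated fatty acids from dietary precursors, and Fads2 catalyses the first step of that route. Fads2 read 12.31, 12.36 and 12.37 with hairpin 2, 12, 12.02 and 12.09 with hairpin 1, and 11.91, 12 and 11.95 with the scrambled hairpin. The hairpin 2 arrays stood above all the others, while the hairpin 1 arrays began where the scrambled ones ended. Fads2 rose 1.31-fold with hairpin 2 (log2 difference 0.39, SE 0.0549, limma adjusted p = 3.45e-05). With hairpin 1 it differed by 0.09 (95% interval -0.03 to 0.21, adjusted p = 0.233). The direct comparison put hairpin 2 above hairpin 1 by 0.30 (adjusted p = 0.000637).

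Of the other 2 Fads2 probe sets, 1 was called with both hairpins and 1 with neither. The called one read 11.78, 11.61 and 11.82 with hairpin 2, 11.38, 11.56 and 11.64 with hairpin 1, and 11.01, 11.26 and 11.26 with the scrambled hairpin, and the hairpin arrays lay above the scrambled ones. The differences were 0.56 with hairpin 2 and 0.35 with hairpin 1 (limma adjusted p = 0.000389 and 0.0161 over all probe sets). The hairpin 1 call was lost without its repeat 2 or 3 (0.33 and 0.29, adjusted p = 0.0598 and 0.0891) or the first scrambled repeat (0.27, adjusted p = 0.103). The remaining probe set differed by 0.30 with hairpin 2 and 0.08 with hairpin 1 (adjusted p = 0.0919 and 0.721). Fads2 was thus called on 2 of 3 probe sets with hairpin 2 and on 1 of 3 with hairpin 1. Between the hairpins these 2 probe sets gave 0.21 and 0.22 and were not called (adjusted p = 0.161 and 0.257).

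Fads1, which acts later in the same route, read 12.72, 12.98 and 12.71 with hairpin 2, 12.61, 12.74 and 12.63 with hairpin 1, and 12.71, 12.63 and 12.78 with the scrambled hairpin. The groups overlapped, and the differences were 0.10 with hairpin 2 (95% interval -0.05 to 0.24, adjusted p = 0.331) and -0.05 with hairpin 1 (-0.20 to 0.10, adjusted p = 0.653). Without hairpin 2 repeat 2 the hairpin 2 difference was 0.01 (adjusted p = 0.958). A dimmer probe set of Fads1 differed by 0.22 and 0.18 and was not called (adjusted p = 0.0619 and 0.136). The hairpin 2 value of this dimmer probe set passed without the first or the second repeat of hairpin 1 (adjusted p = 0.0339 and 0.0481), and with the mean of both probe sets Fads1 was called with hairpin 2 (0.16, adjusted p = 0.0458). In the RefSeq order Fads3, Fads2 and Fads1 follow each other on chromosome 19. Fads3, a desaturase whose substrates differ from those of its neighbours, was not called against scrambled (-0.16 and 0.18, adjusted p = 0.097 and 0.0631) and was lower with hairpin 2 than with hairpin 1 by 0.35 (-0.35, adjusted p = 0.00188). Degs1, the desaturase of ceramide synthesis, was not called (0.05 and -0.07, adjusted p = 0.711 and 0.539).

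**Figure D3:**
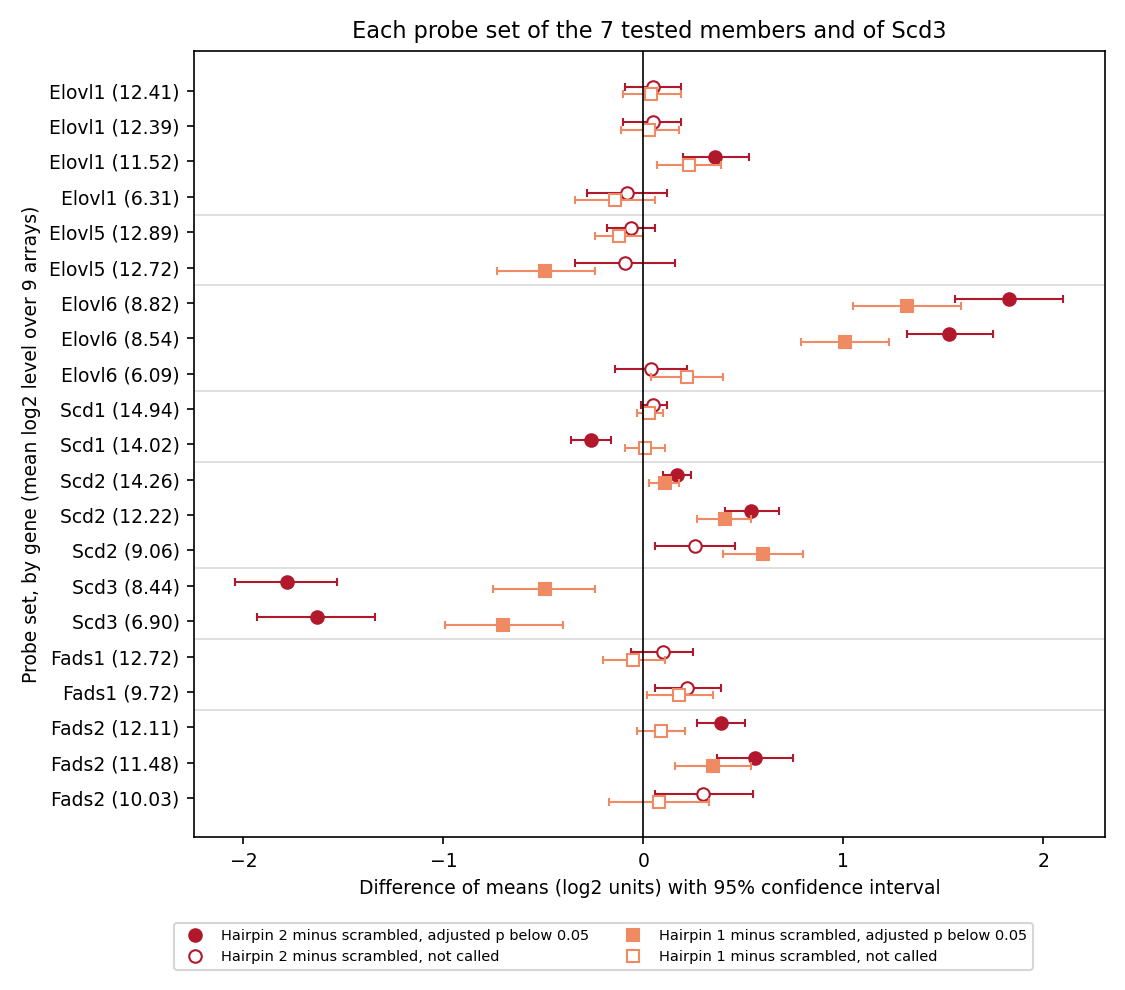
Difference from scrambled in log2 units, with 95% confidence interval, for every probe set of the 7 tested members and of Scd3, hairpin 2 above hairpin 1 in each pair. The number beside each gene is the probe set's mean log2 level over 9 arrays, and filled symbols have an adjusted p below 0.05 over all probe sets. Elovl6 has 2 of 3 probe sets called for each hairpin, and both Scd3 probe sets are lower.

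Over all 28 probe sets of the members, 8 were higher and 1 lower with hairpin 2, and 6 were higher and 1 lower with hairpin 1. The share called among all probe sets was 17.5% and 15.1%, in a fit without a signal filter. Among genes above the signal limit it was 34.8% and 33%. Several of these probe sets read the same gene, so they are not independent. Elovl6, Scd2 and Fads2 held 6 of the 8 higher with hairpin 2 and all 6 of those higher with hairpin 1.

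The steps that share the elongation cycle with the Elovl enzymes moved in different directions. Of 6 tested partners, 1 was higher and 2 lower with hairpin 2, and 1 was higher and 1 lower with hairpin 1, with medians of -0.0139 and 0.0505. Over all genes 34.8% and 33% were called, with medians of 0.0238 and 0.0675. Hacd4, a member of the dehydratase family, rose with both hairpins: 9.46 ± 0.12 with hairpin 2, 8.99 ± 0.17 with hairpin 1 and 8.38 ± 0.11 with the scrambled hairpin (SD, n = 3 each; adjusted p = 6.88e-07 and 0.000364). Its differences were 1.08 and 0.61, and like Elovl6 it was higher with hairpin 2 than with hairpin 1 (0.47, adjusted p = 0.00313). Its relative Hacd1 fell by 0.69 with hairpin 2 (adjusted p = 5.6e-07). The Hacd1 difference with hairpin 1 was 0.03 (adjusted p = 0.754). Hacd2, another dehydratase, was lower with hairpin 2 (-0.13, adjusted p = 0.00404), a call that ended when its probe sets were averaged (-0.06, adjusted p = 0.455) and without the variance trend (adjusted p = 0.129). The enoyl reductase gene Tecr, which closes each round, was not called (0.09 and 0.10, adjusted p = 0.171 and 0.133). Hsd17b12, another partner of the cycle, was lower with hairpin 1 (-0.15, adjusted p = 0.019) and was not called with hairpin 2 (0.06, adjusted p = 0.332). It was higher with hairpin 2 than with hairpin 1 (0.21, adjusted p = 0.00235).

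Among 5 tested genes of the cytochrome b5 and b5 reductase families, 0 were higher and 2 lower with hairpin 2, while 2 were higher and 1 lower with hairpin 1. The shares called among all genes were 34.8% with hairpin 2 and 33% with hairpin 1. Cyb5r4, a fused cytochrome b5 and b5 reductase, fell the most: it averaged 9.28 ± 0.08 with hairpin 2, 9.64 ± 0.03 with hairpin 1 and 10.59 ± 0.03 with the scrambled hairpin (SD, n = 3 each). Its differences were -1.31 and -0.95 (adjusted p = 2.16e-09 and 2.11e-07). Cyb5r1, a related reductase gene, fell by 0.47 with hairpin 2 (adjusted p = 2.58e-05). Its hairpin 1 difference of 0.15 was not called (adjusted p = 0.0854). Cyb5r3, the main cytochrome b5 reductase, rose by 0.26 with hairpin 1 (adjusted p = 0.000907) and was not called with hairpin 2 (0.12, adjusted p = 0.094).

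Of 11 tested genes that supply saturated fatty acid, 5 were higher and 0 lower with hairpin 2, and 4 were higher and 1 lower with hairpin 1, with medians of 0.0789 and 0.0497. Over all genes 34.8% and 33% were called and the medians were 0.0238 and 0.0675, and the list itself was not tested. Slc25a1, the mitochondrial citrate carrier (0.36 and 0.40), and Acss2, which makes acetyl-CoA from acetate (0.32 and 0.30), rose with hairpins 2 and 1. Acly, which makes cytosolic acetyl-CoA from citrate, rose by 0.67 with hairpin 2 (adjusted p = 4.18e-06), or by 0.28 as the mean of its probe sets (adjusted p = 0.00668). The Acly difference with hairpin 1 was 0.01 (adjusted p = 0.912). Me1, a source of NADPH, rose by 0.32 with hairpin 1 (adjusted p = 0.000142). It was also called with hairpin 2 (0.15, adjusted p = 0.0281), a call lost without hairpin 2 repeat 1 or 3 (adjusted p = 0.0836 and 0.13) or scrambled repeat 1 or 2 (0.115 and 0.0871), with quantile normalization (0.052) and without the variance trend (0.128). The fatty acid synthase gene Fasn, whose product Elovl6 lengthens, was not called (0.06 and -0.06, adjusted p = 0.409 and 0.407), nor was the acetyl-CoA carboxylase gene Acaca (0.03 and -0.07, adjusted p = 0.753 and 0.458). Idh1, another NADPH source, was called with both hairpins (0.15 and 0.11, adjusted p = 0.00609 and 0.0367). Averaging the Idh1 probe sets ended both calls (adjusted p = 0.313 and 0.188) and turned the hairpin 1 value to -0.20. Dropping hairpin 2 repeat 1 (adjusted p = 0.0537), hairpin 1 repeat 2 (0.132) or any scrambled repeat (0.0659, 0.0508 and 0.155) also ended the hairpin 1 call. So did no signal filter (adjusted p = 0.0619), quantile normalization (0.149), equal array medians (0.17), no variance trend (0.225) and the fit of 2 groups (0.0603). Without the variance trend the Idh1 call with hairpin 2 ended too (adjusted p = 0.103).

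Of 7 tested acyl-CoA synthetase genes, whose products activate fatty acids, 0 were higher and 2 lower with hairpin 2, and 1 was higher and 1 lower with hairpin 1. Among all genes 34.8% and 33% were called with hairpins 2 and 1. Acsl5 fell with both (-0.34 and -0.66, adjusted p = 0.00114 and 3.74e-06). Acsl4, which prefers polyunsaturated fatty acids, was lower with hairpin 2 (-0.26) and higher with hairpin 1 (0.41), and averaging its probe sets ended both calls (adjusted p = 0.506 and 0.997). Slc27a1, a fatty acid transporter with synthetase activity, was not called (0.08 and 0.24, adjusted p = 0.576 and 0.0701).

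Among 12 tested regulators of these enzymes, 2 rose and 3 fell with each hairpin. For all genes the shares called were 34.8% and 33% with hairpins 2 and 1. Srebf1, a transcription factor known to raise Elovl6, Scd1 and Fads2, fell with both: 12.18 ± 0.09 with hairpin 2, 12.21 ± 0.11 with hairpin 1 and 12.59 ± 0.02 with the scrambled hairpin (SD, n = 3 each; adjusted p = 8.7e-05 and 0.000246). Pparg, the main regulator of fat cell differentiation, also fell with both (-0.56 and -0.25). Scap, the escort protein of the sterol-regulated factors, fell by 0.48 with hairpin 2 (adjusted p = 0.000333), which did not hold when its probe sets were averaged (-0.16, adjusted p = 0.0628). Srebf2, the cholesterol-oriented paralog of Srebf1, rose by 0.38 with hairpin 1 (adjusted p = 0.00556). It was also called with hairpin 2 (0.27, adjusted p = 0.033), a call lost without hairpin 2 repeat 2 or 3 (adjusted p = 0.113 and 0.0775) or any scrambled repeat (0.0524, 0.0941 and 0.117). The protease gene Mbtps1, which takes part in activating both factors, was higher with both (0.27 and 0.33), and averaging its probe sets ended both calls (adjusted p = 0.816 and 1). Mbtps2, also on this list, was lower with hairpin 1 (-0.33, adjusted p = 0.0415) and was not called with hairpin 2 (0.06, adjusted p = 0.735).

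Among 11 tested genes whose products use the fatty acids made, 2 were higher and 2 lower with hairpin 2, and 5 were higher and 0 lower with hairpin 1. Over all genes 34.8% were called with hairpin 2 and 33% with hairpin 1. Cers6, a ceramide synthase that uses palmitoyl-CoA, rose with both: 9.55 ± 0.02 with hairpin 2, 9.10 ± 0.14 with hairpin 1 and 8.62 ± 0.06 with the scrambled hairpin (SD, n = 3 each; adjusted p = 6.15e-07 and 0.000749). The ceramide synthase gene Cers2, which uses the very long chains that Elovl1 makes, was not called (-0.02 and 0.00, adjusted p = 0.886 and 0.973). Dgat2, which closes triglyceride synthesis, rose by 0.31 with hairpin 1 (adjusted p = 0.000747) and was not called with hairpin 2 (0.15, adjusted p = 0.0545). Gpam, which opens triglyceride synthesis, rose by 0.24 with hairpin 1 (adjusted p = 0.00107). With hairpin 2 it was lower (-0.13, adjusted p = 0.0413), a call lost as the mean of its probe sets (-0.02, adjusted p = 0.875), with no signal filter (0.0624), no variance trend (0.165) or the repeat number as a block (0.0513), without any 1 of the hairpin 2 repeats (adjusted p = 0.0621, 0.0643 and 0.15) or without scrambled repeat 1 or 3 (0.117 and 0.145).

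**Figure D4:**
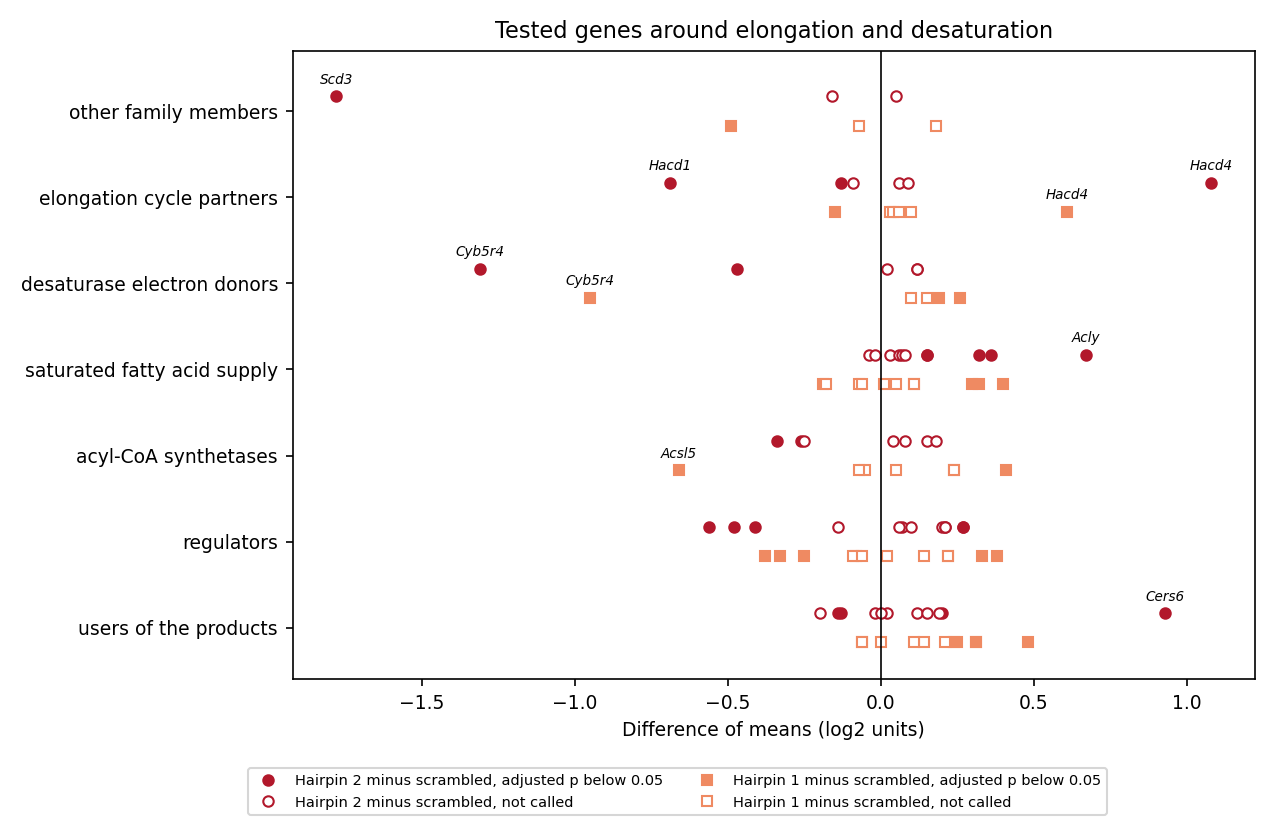
Difference from scrambled in log2 units for each tested gene of the surrounding lists, 1 list per row, with hairpin 2 drawn above hairpin 1. Filled symbols have an adjusted p below 0.05, and genes at 0.6 or more in size are named. Scd3 with hairpin 2 lies farthest to the left at -1.78 and Hacd4 with hairpin 2 farthest to the right at 1.08.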

How the data were processed

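The authors deposited log2 values made with RMA, a method that corrects background, normalizes across arrays and gives 1 value per probe set. RMA is named in the submitters' processing notes, and its version is not given in the sources used here. The table holds 45101 probe sets, of which 64 controls were left out. Of the rest, 34945 have 1 gene symbol, 932 several and 9160 none. Each value column belonged to a sample, and array medians lay between 6.31 and 6.38. The small number of arrays limits the precision.

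A linear model with 3 groups was fitted to all 9 arrays (limma 3.58.1 in R 4.3.3, eBayes with a mean-variance trend), once per gene and once over all 45037 probe sets without a filter. Both were adjusted by Benjamini-Hochberg. All p-values are two-sided. The code was checked on simulated data. Members, lists and tests were chosen with earlier results of these data known. Of each list, the text names genes called with both hairpins and the 3 with the smallest p in either contrast. Genes named beyond these (Tecr, Hsd17b12, Fasn, Acaca, Mbtps2, Cers2 and the markers) were chosen for their role, with their values seen. Hsd17b12 and Mbtps2 were not followed under the alternatives. Alternatives were another probe set rule, 2 other filters, 2 other normalizations, no variance trend, array weights, fits of 2 groups, a repeat-number block and leaving out each array. Those for single probe sets and for listed genes were added after the data were seen. The repeat numbers were not shown to pair the arrays. Same-numbered arrays of different groups correlated in their deviations from the group means at -0.293 to 0.25, and 3 of 9 such pairs exceeded 0.1. Deviations from means of 3 arrays are tied to each other, so these values cannot settle whether the arrays were paired.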

Additional observations from a re-analysis of the deposited data

Results flagged for a closer look

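The effects of the hairpins differed for 2 members by the direct test in limma. For Elovl6, hairpin 2 was above hairpin 1 by 0.51 log2 units (adjusted p = 0.00503), with values of 9.46 to 9.72 with hairpin 2 and 8.93 to 9.28 with hairpin 1. With the mean of its probe sets the Elovl6 difference was 0.28 (adjusted p = 0.0145). In the fit over all probe sets the call of this probe set was lost without hairpin 2 repeat 3 (0.45, adjusted p = 0.0615) or hairpin 1 repeat 3 (0.50, adjusted p = 0.0519). The next brightest Elovl6 probe set kept its call in all 9 such fits. For Fads2, hairpin 2 was above hairpin 1 by 0.30 (adjusted p = 0.000637), with values of 12.31 to 12.37 with hairpin 2 and 12 to 12.09 with hairpin 1; its other 2 probe sets gave 0.21 and 0.22 and were not called (adjusted p = 0.161 and 0.257). All 3 hairpin 2 arrays were higher than all 3 hairpin 1 arrays on the brightest probe set of each gene. Groups of 3 arrays are too small for a test of single outlying arrays.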

How the results depend on the processing

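Of the members, Elovl6 and Fads2 kept their hairpin 2 calls and Elovl6 its hairpin 1 call under all 18 alternatives, leaving out arrays included. Elovl6 ran from 1.13 to 1.96 log2 units for hairpin 2 and 0.85 to 1.45 for hairpin 1, and Fads2 from 0.37 to 0.42 with hairpin 2. Scd2 kept its hairpin 2 call (0.16 to 0.33) and lost its hairpin 1 call under 3. Of 378 comparisons of a member's main value with an alternative, 355 kept direction and side of the threshold. With the mean of all probe sets of a gene, 5 members were called with hairpin 2 (4 higher, 1 lower) and 4 between the hairpins, against 3 and 2. With array weights, 5 were called with hairpin 1 and 4 between the hairpins, against 2 and 2, while the shares of all genes called were 58.6% and 47%, against 33% and 29.1%. Without the variance trend 1 member was called with hairpin 1. Leaving out 1 array at a time gave 3 to 3 members with hairpin 2, 1 to 3 with hairpin 1 (1 without the first scrambled repeat) and 2 to 2 between the hairpins. For single probe sets it gave 9 to 11, 5 to 8 and 5 to 8 of 28, with 5 between the hairpins without the second or the third repeat of hairpin 2; 12.6% of all probe sets were called between the hairpins. With the repeat number as a replicate block the counts of members were 3, 2 and 2 and those of probe sets 9, 7 and 8, equal to those without it, though the brightest Scd2 probe set lost its hairpin 1 call in the fit over all probe sets (adjusted p = 0.0636, against 0.0454) and 1 Elovl1 probe set gained one (0.0497, against 0.0577); the same-numbered arrays were not shown to be pairs. Values that changed sign belonged to member comparisons that were not called in the main fit, and to Idh1 with hairpin 1. With the mean of probe sets these were Scd1 with hairpin 2 (-0.10) and between the hairpins (-0.12), Scd2 between the hairpins (-0.05), Fads1 with hairpin 1 (0.07) and Idh1 with hairpin 1 (-0.20). With equal array medians it was Scd1 with hairpin 1 (-0.01). Elovl1 changed sign with hairpin 1 without its second repeat (-0.02). Between the hairpins Elovl1 did so without the second repeat of hairpin 2 (-0.02) or the first of hairpin 1 (-0.06). Leaving out arrays moved Elovl1 with hairpin 1 as high as 0.11. The causes were not tested. Quantile normalization changed the share of higher calls among all genes called with hairpin 1 to 59.1%, against 72%, and between the hairpins equal array medians and quantile normalization changed it to 47.2% and 49.1%, against 40.1%. Levels near the floor (Elovl3, Elovl4, Elovl7) and ceiling (Scd1) limit what these arrays can show.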
